A study of Homo sapiens with 8 samples.

Results

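Ribosome biogenesis factors are the proteins that transcribe, modify, cut and fold ribosomal RNA (rRNA) in the nucleolus and assemble it with ribosomal proteins. A list of 58 such genes was read in RNA sequencing of the human colorectal cancer line DLD1, and all 58 were found among the 58302 genes of the deposited count table. The members were named one by one, and no threshold on measured values chose them, but earlier results of these data were known at that time. In OE-WT the cells stably carried a lentiviral pCDH construct for wild-type TRMT6 and TRMT61A, the subunits of an enzyme that methylates adenosine in tRNA to m1A. In CTRL they carried the vector. Each group had 2 libraries, each sequenced in 2 lanes that the table holds as 1 column. The labels describe RNA from the cleared supernatant of cells lysed with cycloheximide, a translation inhibitor that both groups received, and selection of poly(A) RNA. The study's methods describe removal of rRNA instead and 3 biological replicates per group. Cells with catalytically inactive TRMT6/61A were not analysed here.

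In the nucleolus, RNA polymerase I copies the rDNA into a long precursor that holds the 18S, 5.8S and 28S rRNAs. Small nucleolar ribonucleoproteins (snoRNPs) guide 2'-O-methylation (box C/D) and pseudouridylation (box H/ACA) of that precursor. A large assembly, the small-subunit processome, folds and cuts its 18S part, and separate groups of factors finish the 40S subunit and build the 60S subunit. Proliferating and tumour cells are known for high levels of many of these factors. Many of the genes are textbook targets of the transcription factor MYC, which binds with its partner MAX to the E-box CACGTG.

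The libraries held between 10327498 and 12379671 counts on genes. Values are CPM, in which counts are divided by a library size that the TMM method scales and that sets the bulk of genes equal between libraries. A mean of at least 100 counts was reached by 54 of the 58 factors, and UTP20, DDX10, DDX47 and LTV1 fell short of it. The test was the quasi-likelihood test of edgeR, adjusted by Benjamini and Hochberg over the 14133 genes with enough counts, and a gene was called higher or lower at an adjusted p below 0.05. All 58 factors entered the test. For a single gene, the smallest p of an exact permutation test with 2 libraries per group is 0.333, so p-values come from the model across genes. The epithelial marker EPCAM had 461 to 545 CPM. Of 13 markers of fibroblasts, leukocytes and endothelium, 5 were at 0 in all libraries, and together they had 34 to 62 counts per library. Only COL1A1 and VWF of these had enough counts for the test, and VWF, an endothelial gene, was called lower (5 and 6 counts in OE-WT, 30 and 14 in CTRL, log2 fold change -1.65, adjusted p = 0.018, edgeR). KRT8 and KRT18, keratins of simple epithelia, were called higher, and KRT19, KRT20 and CDH1 lower, with KRT20 at a log2 fold change of -1.52. CDX1, a colon transcription factor, had at most 1 count. Of the 10 colon epithelial markers 9 were tested, and the part of these marker changes in the values below was not tested.

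The overexpressed genes checked the labels. TRMT6 had 211 and 181 CPM in OE-WT and 52.6 and 55.4 in CTRL. TRMT61A had 138 and 130 CPM in OE-WT and 58.9 and 56.8 in CTRL. Both were called higher.

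Many of the factors were higher in OE-WT cells, by small amounts. Of the 58, 30 (51.7%) were called higher, 0 were called lower (0 also with DESeq2) and 28 were not called. Among all genes tested 9.44% were called higher and 11.6% lower. Genes with a mean of at least 100 counts were called higher in 13.5% of cases, and factors with such counts in 29 of 54 (53.7%). The median log2 fold change of the factors, OE-WT over CTRL, was 0.28 (quartiles 0.16 and 0.41), beside 0.01 (quartiles -0.22 and 0.21) for all genes tested. The fitted change was above 0 for 54 factors, against 51.1% of all genes, and below 0 for NOP10, TAF1D, EMG1 and WDR12. Both OE-WT libraries lay above both CTRL libraries for 44 factors and below them for 3, against 29.9% and 30.2% of all genes. In RNA from whole cultures, a change in the share of cells that express a gene and a change in its RNA per cell cannot be told apart. The p-values rest on the spread between libraries of a group. The study's methods do not say how many separately made lines each group had. A difference between lines and an effect of the overexpression cannot be told apart here.

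The changes stayed below the size that the study's methods asked for. At an absolute log2 fold change over 1 with an unadjusted p under 0.05, edgeR passed 0 factors and 3.15% of all genes tested. DDX52 passed when OE-WT replicate 2 was left out, and 0 passed with DESeq2. At an unadjusted p below 0.05 alone, 35 factors were higher and 1, EMG1, was lower, against 16.4% and 17.5% of all genes. The largest log2 fold changes among the factors were 0.81 for DDX52 and for GNL3L.

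The count of 30 depended on the libraries and the test. It was 18 with DESeq2, 18 without CTRL replicate 1 and 19 without OE-WT replicate 1, where 3.69%, 5.52% and 5.78% of all genes were called higher. It was 23 with 1 factor lower when library sizes alone set the scale. Under that scale 733 genes were called higher and 2451 lower, or 5.19% and 17.3% of all genes, against 1334 and 1642 with TMM. The median log2 fold change was then 0.19 for the factors and -0.08 for all genes. The distance between these medians was 0.27, as with TMM. Called higher under every alternative tried were 16 factors, namely NCL, NOP56, DKC1, NOLC1, TCOF1, UTP14A, HEATR1, DDX52, PNO1, TSR1, RRP12, PES1, DDX56, GNL3L, MRTO4 and DDX21.

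**Figure D1:**
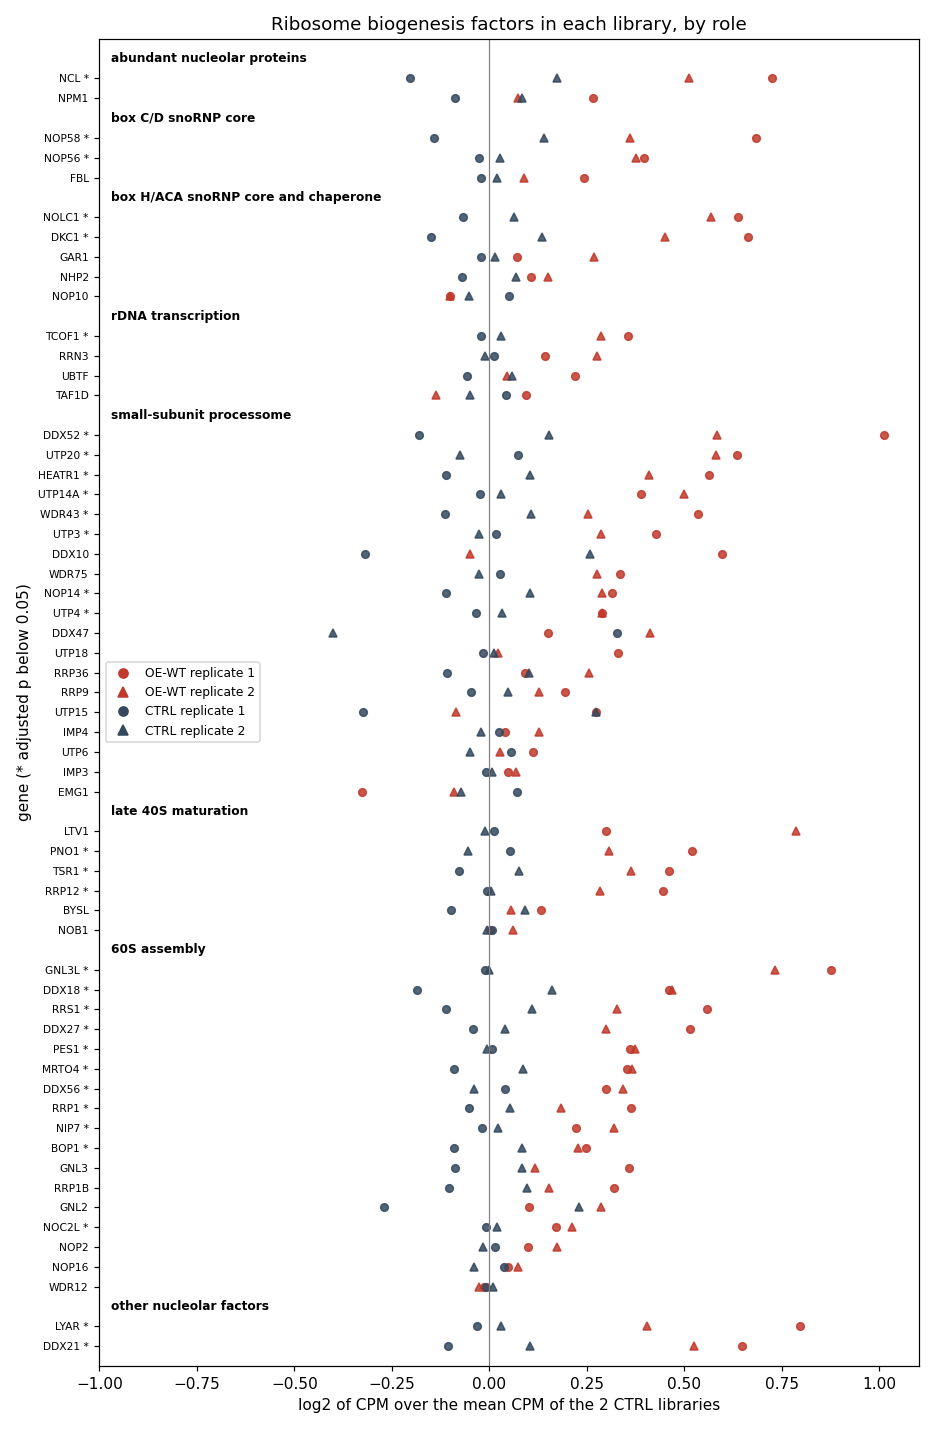
Each row is 1 of the 58 factors, grouped by role, and the horizontal axis gives the log2 of a library's CPM over the mean CPM of the 2 CTRL libraries. Red points are the OE-WT libraries and dark points the CTRL libraries (circle, replicate 1; triangle, replicate 2). An asterisk marks an adjusted p below 0.05 (edgeR). The red points lie to the right of both dark points for 44 factors and to the left for 3.

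**Figure D2:**
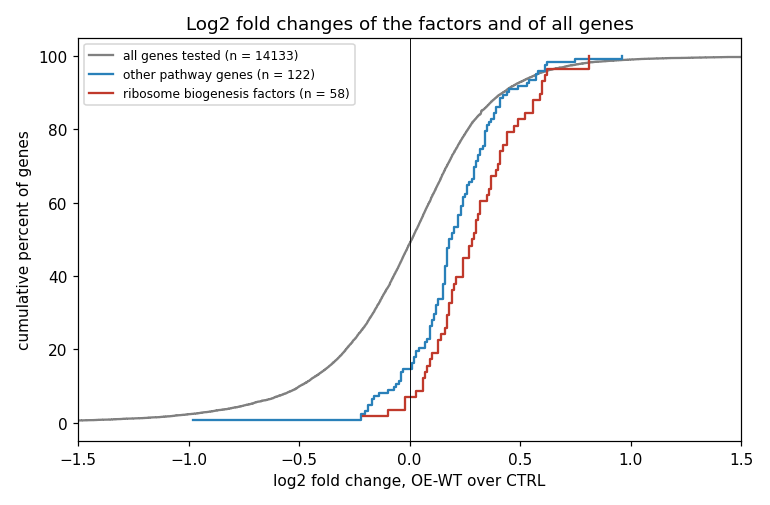
Cumulative percent of genes (vertical axis) by log2 fold change of OE-WT over CTRL (horizontal axis), for the 58 factors (red), 122 other genes of the pathway (blue) and all 14133 genes tested (grey). The medians are 0.28, 0.18 and 0.01. The horizontal axis is limited to changes between -1.5 and 1.5.

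The promoters of the factors were searched for the E-box. RefSeq windows of 300 bases on GRCh38.p14, 250 before and 50 after the start, covered 49 of the 58 genes. Without a window were BOP1, DDX18, DDX52, NOLC1, NOP58, RRP12, RRP1B, RRS1 and TCOF1. All of these except RRP1B were called higher, so the windows leave out more called than uncalled factors. The letters CACGTG, which read the same on both strands, stood in the windows of 21 of these (42.9%), against 12.5% of the 10175 tested genes with a window. They stood within 60 bases before and 30 after the start in 15 factors (30.6%), against 5.37% of tested genes. Over the whole window the share was 45.5% for the 22 factors called higher and 40.7% for the 27 not called. Near the start these shares were 36.4% and 25.9%. The median log2 fold change was 0.29 for the 21 with the letters and 0.24 for the 28 without. The letters CCGGAAG, bound by ETS factors and searched on both strands, stood in 42.9% of the factors and 22.6% of tested genes. A match describes the letters and not the binding of a factor.
Windows from 60 bases before to 30 after the start are shown for 4 factors called higher (PNO1, PES1, MRTO4 and DDX21) and 2 not called (FBL and NOP10), 5' to 3' on the strand of the gene, with the E-box in capitals. They lie at chr2:68157828-68157917 (plus strand), chr22:30591881-30591970 (minus), chr1:19251745-19251834 (plus), chr10:68956587-68956676 (plus), chr19:39846350-39846439 (minus) and chr15:34343107-34343196 (minus).
PNO1: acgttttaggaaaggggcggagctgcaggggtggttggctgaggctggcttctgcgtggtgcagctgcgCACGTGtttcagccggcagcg
PES1: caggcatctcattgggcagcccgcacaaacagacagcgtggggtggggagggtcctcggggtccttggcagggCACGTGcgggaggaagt
MRTO4: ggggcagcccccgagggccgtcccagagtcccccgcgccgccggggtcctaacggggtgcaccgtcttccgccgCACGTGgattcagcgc
DDX21: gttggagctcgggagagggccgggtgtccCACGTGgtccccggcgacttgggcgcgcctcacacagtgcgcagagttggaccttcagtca
FBL: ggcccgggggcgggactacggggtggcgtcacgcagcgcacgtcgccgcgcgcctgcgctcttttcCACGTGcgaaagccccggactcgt
NOP10: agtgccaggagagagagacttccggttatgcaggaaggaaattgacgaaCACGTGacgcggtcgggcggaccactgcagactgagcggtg
Counting the first transcribed base as 1, the E-box began at base 10, 14, 15 and 7 in PNO1, PES1, MRTO4 and FBL, and it began 31 and 11 bases before the start in DDX21 and NOP10. DDX21 has another RefSeq window of 300 bases, at chr10:68955920-68956219, without these letters. In PES1, DDX21 and NOP10 the RefSeq start shown lies inside the wider gene span that GENCODE gives.

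Of the abundant nucleolar proteins, 1 of 2 was called. NCL encodes nucleolin, an RNA-binding protein of the nucleolus (ENSG00000115053, chromosome 2, 231453531 to 231483641 on GRCh38). It had 350 and 302 CPM in OE-WT and 184 and 239 in CTRL. Both OE-WT values were above both CTRL values, although the CTRL libraries were themselves far apart. The log2 fold change was 0.62 with a standard error of 0.09 (adjusted p = 5e-05, edgeR), with values of 0.45 to 0.82 when 1 library was left out. NPM1, nucleophosmin, a histone and ribosome chaperone, had the highest level per kilobase of exon among the factors. It had 688 and 602 CPM in OE-WT and 538 and 606 in CTRL, so the groups overlapped. Its log2 fold change of 0.17 did not pass (adjusted p = 0.106, edgeR), but it did without OE-WT replicate 2 and without CTRL replicate 2, at 0.26 each. NPM1 has 49 annotated pseudogenes, which held 1.35% as many counts as the gene itself.

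Of the 3 box C/D snoRNP core proteins in the list, the 2 scaffold proteins were called higher and the enzyme was not called. NOP56 (ENSG00000101361, chromosome 20, 2652593 to 2658393) had 279 and 275 CPM in OE-WT and 208 and 216 in CTRL. These pairs were tight and well apart, and the log2 fold change was 0.39 with a standard error of 0.06 (adjusted p = 0.00016, edgeR). Its partner NOP58 had 17.5 and 14.0 CPM in OE-WT and 9.87 and 12.0 in CTRL, a log2 fold change of 0.52 (adjusted p = 0.0178, edgeR). NOP58 was no longer called with DESeq2, without a filter beyond 1 count, without OE-WT replicate 1 (0.35) or without CTRL replicate 1 (0.39). FBL encodes fibrillarin, the 2'-O-methyltransferase of these particles. It had 104 and 93.5 CPM in OE-WT and 86.6 and 89.1 in CTRL. The groups did not overlap, but the log2 fold change of 0.17 did not pass (adjusted p = 0.101, edgeR), although it did without OE-WT replicate 2, at 0.24, and with a GC trend removed, at 0.25.

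In the box H/ACA particle the enzyme was called and its small partners were not, and differences between subunits were not tested in either particle. DKC1 encodes dyskerin, the pseudouridine synthase (ENSG00000130826, chromosome X, 154762742 to 154777689). It had 74.1 and 63.9 CPM in OE-WT and 42.2 and 51.4 in CTRL. Its log2 fold change was 0.56 with a standard error of 0.09 (adjusted p = 0.00018, edgeR). The small core proteins NHP2, GAR1 and NOP10 were not called, with log2 fold changes of 0.13, 0.18 and -0.10. NOP10 had 77.3 CPM in each OE-WT library and 85.8 and 80.0 in CTRL, 1 of the 3 factors whose OE-WT libraries both lay below CTRL. NOLC1, a chaperone that binds both snoRNP classes in the nucleolus and Cajal bodies (ENSG00000166197, chromosome 10, 102152176 to 102163871), had 171 and 163 CPM in OE-WT and 105 and 115 in CTRL. Its log2 fold change was 0.60 with a standard error of 0.07, and its adjusted p of 3e-06 (edgeR) was the smallest of the factors.

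Of the rDNA transcription factors, 1 of 4 was called. TCOF1 encodes treacle, a nucleolar scaffold that supports rDNA transcription (ENSG00000070814, chromosome 5, 150357629 to 150400308). It had 128 and 122 CPM in OE-WT and 98.5 and 102 in CTRL, a log2 fold change of 0.32 with a standard error of 0.07 (adjusted p = 0.0019, edgeR). UBTF, the upstream binding factor of rDNA, had 77.6 and 68.7 CPM in OE-WT and 64.0 and 69.3 in CTRL, and these ranges overlapped. RRN3, the initiation factor that recruits RNA polymerase I, had a log2 fold change of 0.21 (adjusted p = 0.369, edgeR). Its 3 annotated pseudogenes held 35.4% as many counts as the gene, so reads may be split between the copies. TAF1D, a subunit of the promoter selectivity factor, had a log2 fold change of -0.02. Of 5 further rDNA promoter factors (TAF1A, TAF1B, TAF1C, TBP and TTF1), 0 were called by edgeR or by DESeq2 and 1 had an unadjusted p below 0.05 (edgeR).

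The small-subunit processome had 8 of 19 members called higher, with a median log2 fold change of 0.29. DDX52, an RNA helicase (ENSG00000278053, chromosome 17, 37609739 to 37643446), had 18.3 and 13.6 CPM in OE-WT and 8.01 and 10.1 in CTRL. The log2 fold change was 0.81 with a standard error of 0.17 (adjusted p = 0.0014, edgeR), with values of 0.58 to 1.00 when 1 library was left out. UTP20, a large scaffold protein, had 10.1 and 9.73 CPM in OE-WT and 6.84 and 6.17 in CTRL, a log2 fold change of 0.60 (adjusted p = 0.0138, edgeR), which passed neither with DESeq2 nor without OE-WT replicate 1 (0.58) or CTRL replicate 2 (0.53). HEATR1, a scaffold that also takes part in rDNA transcription, had 27.9 and 25.1 CPM in OE-WT and 17.5 and 20.3 in CTRL, a log2 fold change of 0.49 (adjusted p = 0.0039, edgeR). In each of these genes the OE-WT libraries lay above both CTRL libraries. UTP14A, which activates the helicase of the complex, had 31.7 and 34.2 CPM in OE-WT and 23.8 and 24.7 in CTRL, a log2 fold change of 0.44 (adjusted p = 0.0024, edgeR). UTP3, UTP4, WDR43 and NOP14 were called with log2 fold changes of 0.35, 0.29, 0.40 and 0.30. Each of these 4 lost its call under at least 1 alternative.

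The other 11 processome members were not called. UTP6, UTP15, UTP18, WDR75, RRP9, RRP36, IMP3, IMP4, DDX10 and DDX47 had log2 fold changes between 0.06 and 0.31. RRP9, a box C/D-associated protein of the processome, was called higher with a GC trend removed (0.30, against 0.16 in the main setting). The direction turned for UTP6, IMP3 and IMP4 when library sizes alone set the scale. DDX47 had 11 to 19 counts per library and shares exons on the same strand with APOLD1, so its value is uncertain. EMG1, the methyltransferase that modifies a pseudouridine of 18S rRNA, had the lowest change of all 58 factors. It had 42.7 and 50.3 CPM in OE-WT and 56.3 and 51.0 in CTRL, a log2 fold change of -0.21 (adjusted p = 0.108, edgeR). It was called lower without OE-WT replicate 2 (log2 fold change -0.34), without CTRL replicate 2 (-0.27) and with library sizes alone (-0.30). EMG1 overlaps LPCAT3 on the other strand, and the strand setting of the counting is not given in the sources used here. LPCAT3 itself was called lower, at a log2 fold change of -0.29 (adjusted p = 0.0156, edgeR), and its part in the EMG1 value was not tested.

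Late 40S maturation had 3 of 6 members called higher, with a median log2 fold change of 0.39. PNO1, which sits on the 3' end of pre-18S rRNA until the last cut (ENSG00000115946, chromosome 2, 68157888 to 68176238), had 68.1 and 58.7 CPM in OE-WT and 49.3 and 45.7 in CTRL. Its log2 fold change was 0.42 with a standard error of 0.08 (adjusted p = 0.0013, edgeR). NOB1, the endonuclease that makes that cut, had 80.9 and 84.3 CPM in OE-WT and 81.2 and 80.4 in CTRL, so the groups overlapped (log2 fold change 0.03, adjusted p = 0.792, edgeR). TSR1, a GTPase-like assembly factor, had 73.7 and 68.9 CPM in OE-WT and 50.8 and 56.5 in CTRL, a log2 fold change of 0.41 (adjusted p = 0.00071, edgeR). RRP12, an export factor, had 89.9 and 80.5 CPM in OE-WT and 65.8 and 66.3 in CTRL, a log2 fold change of 0.37 (adjusted p = 0.0013, edgeR). BYSL, bystin, had a log2 fold change of 0.09. LTV1, an assembly factor of the pre-40S particle, had 3.22 and 4.52 CPM in OE-WT and 2.64 and 2.60 in CTRL. Its log2 fold change of 0.56, on 32 to 46 counts per library, was the largest of the 28 uncalled factors (adjusted p = 0.135, edgeR). LTV1 shares exons on the same strand with other annotated protein-coding genes, so its value is uncertain.

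Among the 60S assembly factors 11 of 17 (64.7%) were called higher, with a median log2 fold change of 0.27. GNL3L, a nucleolar GTPase (ENSG00000130119, chromosome X, 54530183 to 54621521), had 22.2 and 20.1 CPM in OE-WT and 12.0 and 12.1 in CTRL. The log2 fold change was 0.81 with a standard error of 0.13 (adjusted p = 0.0001, edgeR), and it stayed between 0.74 and 0.86 with each library left out. Its relatives GNL3, nucleostemin, and GNL2 were not called, with log2 fold changes of 0.24 and 0.20. For GNL3 the libraries of the groups did not overlap (41.5 and 35.1 CPM in OE-WT, 30.5 and 34.3 in CTRL), and for GNL2 they did. GNL3 was called without OE-WT replicate 2 (0.35) and without CTRL replicate 2 (0.33).

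PES1, BOP1 and WDR12 form the PeBoW complex of 60S maturation, and 2 of these 3 were called. PES1 (ENSG00000100029, chromosome 22, 30576625 to 30607083) had 126 and 127 CPM in OE-WT and 98.6 and 97.7 in CTRL, a log2 fold change of 0.37 with a standard error of 0.07 (adjusted p = 0.00041, edgeR). BOP1 had 97.0 and 95.7 CPM in OE-WT and 76.7 and 86.6 in CTRL, a log2 fold change of 0.24 (adjusted p = 0.0238, edgeR), and it was not called with DESeq2, with library sizes alone, without a filter beyond 1 count, without OE-WT replicate 1 (0.23) or without CTRL replicate 1 (0.15). WDR12 had 31.0 and 30.7 CPM in OE-WT and 31.1 and 31.5 in CTRL, a log2 fold change of -0.02. The differences between these 3 changes were not tested.

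MRTO4, the factor that holds the place of the stalk protein P0 on pre-60S particles (ENSG00000053372, chromosome 1, 19251805 to 19260128), had 109 and 110 CPM in OE-WT and 80.2 and 90.6 in CTRL. The log2 fold change of MRTO4 was 0.36 with a standard error of 0.07 (adjusted p = 0.0012, edgeR). The DEAD-box helicases DDX18, DDX27 and DDX56 were called with log2 fold changes of 0.47, 0.41 and 0.32. DDX18 lost its call without CTRL replicate 1 (0.30) and DDX27 without OE-WT replicate 1 (0.30). DDX56 kept its call under each alternative, with 92.2 and 95.1 CPM in OE-WT and 77.1 and 73.0 in CTRL. RRS1, RRP1, NIP7 and NOC2L were called at 0.44, 0.28, 0.27 and 0.19, and each lost its call with DESeq2. NOP2, an rRNA cytosine methyltransferase, NOP16 and RRP1B were not called, with log2 fold changes of 0.14, 0.06 and 0.24. RRP1B was called without OE-WT replicate 2 (0.31) and without CTRL replicate 2 (0.34).

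Both remaining nucleolar factors were called. DDX21, a helicase that links RNA polymerase I transcription with rRNA processing (ENSG00000165732, chromosome 10, 68956135 to 68985068), had 52.5 and 48.2 CPM in OE-WT and 31.1 and 36.0 in CTRL. For DDX21 the log2 fold change was 0.59 with a standard error of 0.09 (adjusted p = 8.6e-05, edgeR). LYAR, a nucleolar zinc finger protein, had 13.4 and 10.2 CPM in OE-WT and 7.54 and 7.87 in CTRL, a log2 fold change of 0.61 (adjusted p = 0.0122, edgeR). LYAR was not called with DESeq2, without OE-WT replicate 1 or without CTRL replicate 1.

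**Figure D3:**
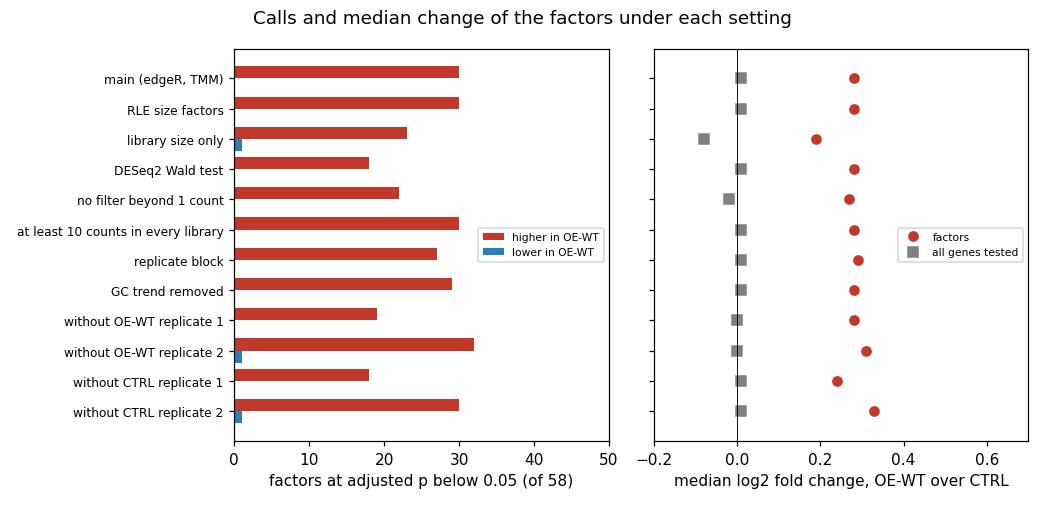
The left panel counts the factors, of 58, called higher (red) or lower (blue) at an adjusted p below 0.05 under the main setting and 11 alternatives. The right panel gives the median log2 fold change of the factors (red circles) and of all genes tested (grey squares) under each. The count runs from 18 to 32, and the median of the factors runs from 0.19 to 0.33, above that of all genes under each setting shown.

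A wider list of 123 further genes of rRNA processing and ribosome assembly was read from the same fit. Of the 122 tested, 28 (23.0%) were called higher and 0 lower by edgeR, against 9.44% and 11.6% of all genes. At an unadjusted p below 0.05, 49 were higher and 3 lower, against 16.4% and 17.5% of all genes. DESeq2 called 12 higher (3.69% of all genes) and 0 lower. The count was 17 without OE-WT replicate 1 (5.78% of all genes) and 16 without CTRL replicate 1 (5.52%). When library sizes alone set the scale it was 12, with 4 lower (5.19% and 17.3% of all genes). The median log2 fold change was 0.18, and 104 were above 0. By role, 10 of 35 small-subunit and 40S genes, 11 of 48 genes of 60S assembly and export, 5 of 24 exosome and nuclease genes and 2 of 10 snoRNP assembly genes were called higher. The 5 largest called increases were in RRP15, UTP25, NOL9, BMS1 and NAF1, with log2 fold changes of 0.96, 0.61, 0.58, 0.57 and 0.57. RRP15, a 60S factor, had 12.6 and 9.24 CPM in OE-WT and 4.82 and 6.41 in CTRL. BMS1 is the GTPase of the small-subunit processome and NAF1 an assembly factor of box H/ACA particles.

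The summed level of the 58 factors was read beside genes annotated over rRNA. In OE-WT the factors took 0.402% and 0.394% of all counts, and in CTRL 0.340% and 0.359%, a ratio of 1.14 of the mean shares. Without NCL and NPM1 this ratio was 1.13. These are shares of raw counts, which include the reads on rRNA. On the TMM-scaled CPM used above, the ratio of the summed factors was 1.21, with or without NCL and NPM1. The 4 genes annotated over 18S rRNA copies on chromosome 21 are entries of 923 bases on the minus strand. Of these, 1 lies over a pseudogene, RNA18SP5. Their reads cannot be assigned to 1 copy. The strand setting of the counting is not given, and whether the reads come from the strand of 18S rRNA was not tested. These genes took 0.466% and 0.534% in OE-WT and 0.131% and 0.121% in CTRL, a ratio of 3.96. The mitochondrial rRNAs MT-RNR1 and MT-RNR2, made outside the nucleolus, took 6.44% and 5.93% in OE-WT and 4.11% and 4.23% in CTRL, a ratio of 1.48. Both OE-WT libraries were above both CTRL libraries for each of these 3 sums. The rRNA shares depend on how much rRNA the library preparation left, and the part of that step in the difference was not tested. More rRNA per cell and less complete removal of rRNA cannot be told apart in these libraries.

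**Figure D4:**
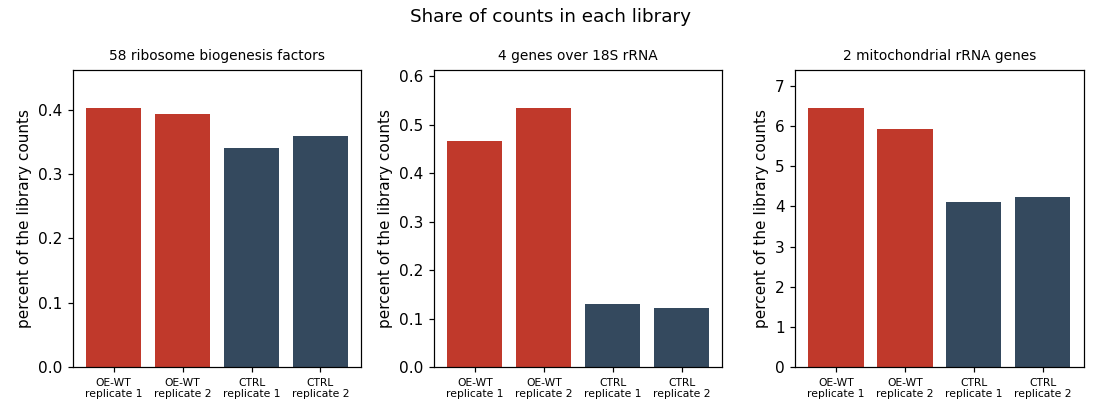
Percent of all counts on genes (vertical axes, each starting at 0 and with its own range) in the 2 OE-WT (red) and 2 CTRL (dark) libraries, for the 58 factors, the 4 genes over 18S rRNA and the 2 mitochondrial rRNA genes. The OE-WT bars are 1.14, 3.96 and 1.48 times the CTRL bars on average.

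MYC and its network were read because many of the factors are known MYC targets. Of the 49 factors with a promoter window, 21 held the E-box letters shown above. MYC had 110 and 117 CPM in OE-WT and 107 and 116 in CTRL, so the groups overlapped, and its log2 fold change was 0.03 (adjusted p = 0.838, edgeR). Of the 10 network genes tested, 0 were called by edgeR or by DESeq2 and 2, MAX and MXD4, had an unadjusted p below 0.05. MAX, the partner of MYC, had a log2 fold change of 0.20 (adjusted p = 0.0729, edgeR), and MXD4, a repressor that competes for MAX, had -0.30 (adjusted p = 0.106, edgeR). These are RNA levels. MYC protein and its binding were not measured here, and the part of MYC in the values of the factors was not tested.

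Sequence features that played no part in choosing the genes were read next. The median GC content of the transcripts was 46.8% for the 30 called and 47.5% for the 28 not called, against 49.0% for protein-coding genes tested. With a smooth GC trend removed from each library, 29 factors were called higher, 27 of them among the 30, and the median log2 fold change was 0.28. The study follows GAC and GAG among the codons of tRNAs with raised m1A. It ties them to translation, whereas the values here are RNA levels. Across transcripts the study found no simple linear relation of their frequency to the change in translation efficiency. GAC and GAG numbered a median of 73.5 per 1000 in the factors and 64.3 in protein-coding genes. The median was 82.4 in the factors called and 62.3 in those not called. These codons stand for aspartate and glutamate, and nucleolin and other nucleolar proteins carry long acidic stretches. Across the 58 factors, which are not independent, Spearman's rho between log2 fold change and this codon count was -0.05. It was -0.42 among the 30 called, -0.18 among the 28 not called and -0.16 across protein-coding genes tested. The 30 were called on this same log2 fold change. With transcript GC content, rho was -0.25 across the 58, -0.59 among the 30, -0.23 among the 28 and -0.35 across protein-coding genes. With exon length these values were 0.26, 0.30, 0.03 and 0.12. The part of GC content in the codon values was not tested. Annotated snoRNAs lie within 8 factors, 33 in all, of which 20 overlap an exon of some annotated transcript of the host and 13 do not. Of these 8 factors, 6 were called higher (DKC1, NCL, NOP56, NOP58, TSR1 and WDR43, but not GNL3 or TAF1D). The snoRNAs themselves had 6 to 14 counts per library together and could not be compared at this depth. Exons of 25 factors overlap an antisense gene and those of 5 a protein-coding gene on the same strand. Of the 29 without either overlap, 17 were called higher.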

How the data were processed

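RNA of 2 OE-WT and 2 CTRL libraries of DLD1 cells was analysed. Per the study's methods, the authors used Cutadapt for trimming, HISAT2 for alignment to GRCh38 and HTSeq for counting. The submitters' processing notes name HISAT2 2.2.1, featureCounts 2.0.0 and DESeq2 1.34.0. The deposited values are raw counts, 10460284 and 10327498 in OE-WT and 12379671 and 12063433 in CTRL. A count of 0 allows 3 counts (0.242 to 0.290 CPM), for counting error only. The annotation release and strand setting are not given in the sources used here.

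GENCODE release 44 gave symbols for 57532 identifiers. Counts were filtered by group (minimum 10), TMM-normalized and tested with edgeR 4.0.16 (R 4.3.3, no replicate block) on the whole table, with adjustment over all genes tested. Alternatives were RLE factors, library sizes alone, DESeq2 1.42.0, 2 other filters, a replicate block, a GC trend removed (lowess, span 0.3) and each library left out. The steps were tested on simulated counts. The factors and lists were chosen with earlier results of these data known. All 58 factors, TRMT6, TRMT61A, the 18S and MYC network genes and the 5 largest called changes of the other pathway genes could be named. LPCAT3, APOLD1 and the mitochondrial rRNAs were added after their values were seen. The series' design text speaks of duplicate cultures for each group. Promoters came from RefSeq (GRCh38.p14). Figures were drawn with matplotlib 3.10.9 in Python 3.11.15.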

Additional observations from a re-analysis of the deposited data

How the results depend on the processing

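Of the factors, 30 were called higher and 0 lower with RLE factors and likewise at a minimum of 10 counts per library, 23 higher and 1 lower (EMG1) with library sizes alone, 18 and 0 with DESeq2, 22 and 0 without a filter beyond 1 count, and 29 and 0 with the GC trend removed. Leaving out each library gave 18 to 32 higher, 0 to 1 lower, 0 to 1 past the study's thresholds and medians of 0.24 to 0.33. In those fits the lone library is assumed to vary like the other group. The median was 0.19 with library sizes alone. The other pathway genes had 12 higher and 4 lower with library sizes alone, 12 higher with DESeq2, 16 higher without a filter, 1 lower at a minimum of 10 counts per library and 2 lower with the GC trend removed. Leaving out each library gave 16 to 28 higher and 0 to 2 lower. The cause of these shifts was not tested.

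Replicate numbers are shared by the groups, but the deviations of same-numbered libraries correlated at -0.0681. This correlation across genes cannot show whether same-numbered libraries shared a culture or a preparation. With a replicate block 27 factors and 24 other pathway genes were called higher and 0 lower, the median was 0.29, and 0 factors passed the study's thresholds.

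Directions turned for factors that were not called. With library sizes alone the log2 fold change was -0.03 for UTP6, IMP3 and NOP16, -0.01 for IMP4 and -0.06 for NOB1. With the GC trend removed it was -0.03 for UTP6 and -0.01 for UTP15. Leaving out each library gave -0.17 to 0.43 for UTP15, -0.04 to 0.62 for DDX10, -0.14 to 0.08 for TAF1D, -0.01 to 0.06 for NOB1, -0.03 to 0.47 for GNL2 and -0.03 to 0.68 for DDX47. Of the 4 factors with a mean under 100 counts, 1 was called. A factor that was not called is not shown to be unchanged.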
